A study of Caenorhabditis elegans with 6 samples.

Results

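The genes of the JNK and ERK MAP kinase cascades were followed in BAG neurons, the carbon dioxide and oxygen sensing neurons of the Caenorhabditis elegans head. The members are the 10 rows of the deposited expression table, out of 47063 gene rows, whose gene alias is jnk-1, jkk-1, kgb-1, kgb-2, mek-1, mlk-1, mpk-1, mek-2, lin-45 or let-60. Of these, 9 reached a normalized read count of at least 10 in at least 2 libraries and were tested. The remaining member, kgb-2, did not.

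RNA was sequenced from 6 libraries in 3 groups of 2, which the series design calls biological replicates. The non-BAG group holds non-fluorescent cells and the wild-type BAG group holds fluorescent cells, both sorted from strain FQ424, whose genotype is wzIs113[Pgcy-9::GFP]. The pmk-3 mutant BAG group holds fluorescent cells of strain FQ705, which carries the same reporter and the allele pmk-3(wz31). The reporter puts green fluorescent protein under the promoter of gcy-9, a receptor guanylyl cyclase gene, and all 3 groups share it. The cells were embryonic, dissociated and sorted after about 24 hours at 25 degrees Celsius, and over 90% of the sorted fluorescent cells were seen to carry the label. They are therefore cultured embryonic cells and not neurons of an intact animal, and the non-BAG group is a mixture of many cell types. Beyond the word biological, nothing says that replicates were grown as separate cultures, so the p-values rest on the spread among the sequenced libraries, which may be technical.

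MAP kinase cascades pass a signal from a MAP kinase kinase kinase to a MAP kinase kinase and on to a MAP kinase, each activating the next by phosphorylation. In the worm JNK cascade, JKK-1 activates JNK-1, a kinase of the nervous system that acts in locomotion and in the transport of synaptic vesicle components. In a parallel JNK-like cascade, MLK-1, MEK-1 and KGB-1 act in responses to heavy metals and in axon regeneration, beside the DLK-1 to PMK-3 p38 cascade that is mutated here. In the ERK cascade the GTPase LET-60 (Ras) acts through LIN-45 (Raf) and MEK-2 (MEK) on MPK-1 (ERK), best known from vulval induction and the germline and also used in worm olfactory neurons.

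The libraries held 6181113 to 8596169 recovered reads. The members were covered by 88 to 6471 reads in each library, apart from kgb-2. The transcript of pmk-3 was at 259.8 and 284 in the mutant libraries and at 671 and 585 in the wild-type BAG libraries, a change of -1.20 ± 0.28 that missed the 0.05 threshold (limma adjusted p = 0.0784). It passed under 5 of 17 alternatives, with adjusted p from 0.0184 to 0.52, and the sources do not give what the wz31 allele alters. The 10 BAG marker genes summed to between 1314 and 2115 in the non-BAG libraries, between 63408 and 65951 in wild-type BAG and between 66894 and 80111 in mutant BAG, and all 10 rose in both BAG groups over non-BAG cells. The 10 pan-neuronal markers summed to between 6481 and 6488, between 36131 and 37369.5 and between 57223 and 68905 in the same order. Of these 10, 9 rose past the threshold in each BAG group over non-BAG cells, and 1 rose in mutant over wild-type BAG. The 10 body wall muscle markers summed to between 29052 and 44656, between 46257 and 51511 and between 56222 and 61362, and over non-BAG cells the wild-type BAG group had 1 of them higher (unc-54) and 8 lower past the threshold. Markers of dividing cells summed to between 3917 and 6066 in the non-BAG libraries and between 1794 and 2017 in wild-type BAG, where 6 of 8 fell. The part that neuron content and these other cells have in the results below was not tested. In sorted bulk RNA, fewer cells of a type and less RNA per cell cannot be told apart.

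The comparison of wild-type BAG neurons with non-BAG cells asks which parts of each cascade are more abundant in the sorted neuron. Transcripts of jnk-1, its kinase jkk-1, the ERK gene mpk-1 and the Raf gene lin-45 rose, and no member fell. The largest change was that of mpk-1, whose mean went from 484 to 4949. Of 9 tested members 4 rose, beside 10.2% of all 14211 genes tested that were higher. All 9 tested members were higher in both BAG libraries than in both non-BAG libraries, a pattern held by 28.4% of all tested genes. The median change of the 9 was 0.90 and that of all tested genes was -0.04, both as log2 differences. Changes throughout are log2 differences of normalized read count plus 1, given ± SE from limma with Benjamini-Hochberg adjustment over all tested genes. A call means an adjusted p under 0.05.

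**Figure D1:**
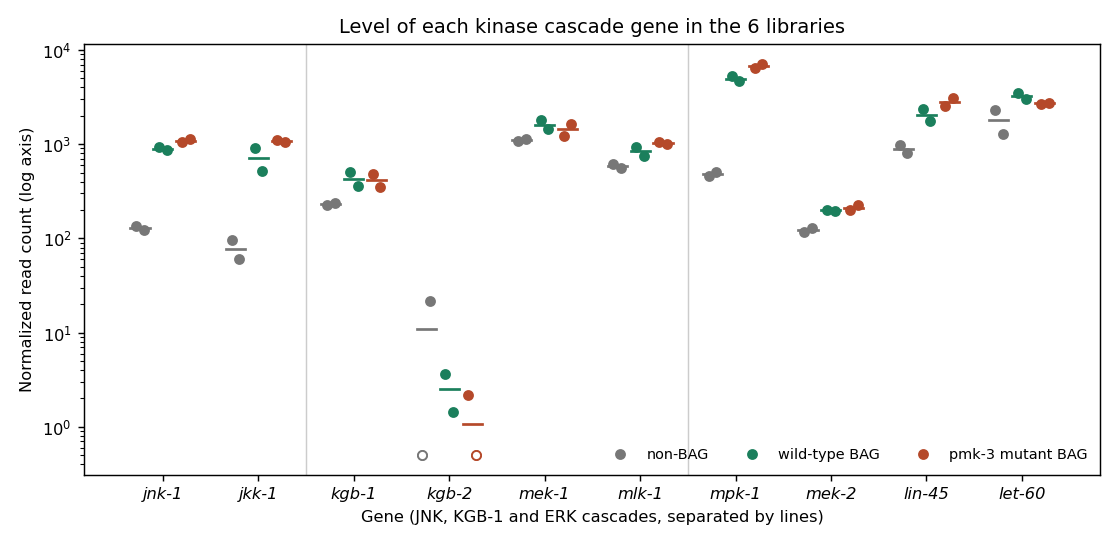
Normalized read count (log axis) of each member in the 6 libraries; points are libraries, short bars are group means, and open points mark a value of 0 drawn at the foot of the axis. The 2 BAG groups stand apart from non-BAG cells for jnk-1, jkk-1 and mpk-1, while kgb-2 reached 21.7 in a single non-BAG library.

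In the JNK cascade both genes rose. Normalized counts of the MAP kinase gene jnk-1 were 135 and 121.5 in the non-BAG libraries, 923 with 860.4 in the wild-type BAG pair and 1059.7 with 1126 in the mutant pair. The 4 BAG libraries lay far above both non-BAG libraries. The rise in wild-type BAG neurons was 2.79 ± 0.25 (limma adjusted p = 0.000114), a ratio of means of 6.94. Its activating kinase gene jkk-1 stood at 95.3 and 60.1, then 901 and 523, then 1119 and 1061. The wild-type BAG libraries differed more from each other for jkk-1 than for jnk-1, and the groups did not overlap. The rise of jkk-1 was 3.16 ± 0.35 (limma adjusted p = 0.000315), a ratio of means of 9.16. In the ranking of all tested genes by this change, 4% lay above jnk-1 and 2.8% above jkk-1.

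The level of jkk-1 is uncertain in part, because 956 of its 3762 exonic bases overlap F35C8.9 on the same strand and 324 overlap F35C8.8 on the other strand. Whether the counting used strand is not stated. F35C8.8 was itself listed at 22.7 and 8.06 in the non-BAG pair, 131 and 73.3 in the wild-type BAG pair and 169 and 162 in the mutant pair. F35C8.9 was listed at 5.41 and 4.96, then 20.1 and 16.5, then 69 and 29.9. Both neighbours were thus higher in all 4 BAG libraries than in both non-BAG libraries, as jkk-1 was, and how far shared reads enter the value of jkk-1 was not tested. Exons of jnk-1 overlapped those of B0478.3 by 4 bases, and that gene did not exceed 32.3.

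In the KGB-1 cascade no gene passed the threshold in wild-type BAG neurons. The JNK-like kinase gene kgb-1 stood at 224 and 236 in the non-BAG pair, 502 and 363 in the wild-type BAG pair and 482 and 351 in the mutant pair. Both BAG groups lay above non-BAG cells, with a difference of 0.89 ± 0.30 in wild-type BAG that missed the threshold (limma adjusted p = 0.0814). The MAP kinase kinase gene mek-1 stood at 1088 and 1135, then 1793 and 1434, then 1233 and 1651. All 4 BAG libraries exceeded both non-BAG libraries, by 0.53 ± 0.27 in wild-type BAG (limma adjusted p = 0.236). The mixed lineage kinase gene mlk-1 stood at 616 and 564, then 932 and 749, then 1065 and 1000.5. Its difference in wild-type BAG was 0.50 ± 0.25 (limma adjusted p = 0.235), and its groups did not overlap either. The 95% interval of the change was 0.22 to 1.56 for kgb-1, -0.07 to 1.13 for mek-1 and -0.07 to 1.07 for mlk-1. Each of these intervals ended below that of jnk-1, which began at 2.22.

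The paralogue kgb-2 was close to the limit of detection. Its reads numbered 0 and 35 in the non-BAG pair, 4 and 2 in wild-type BAG and 2 and 0 in mutant BAG, which are normalized values of 0, 21.7, 3.65, 1.44, 2.16 and 0. The 35 reads all lay in non-BAG replicate 2, and the other 5 libraries held 4 reads or fewer. A count of 0 allows up to 3 reads, a value of 3.25 in non-BAG replicate 1 and of 3.45 in mutant replicate 2, for counting error only. Because kgb-1 and kgb-2 are paralogues and how reads matching both were treated is not stated, the low values of kgb-2 are uncertain. Its exons also overlap ZC416.6 by 12 bases on the other strand.

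The ERK cascade held the largest and also some of the smaller changes. The ERK gene mpk-1 stood at 463 and 505 in the non-BAG pair, 5251 and 4648 in the wild-type BAG pair and 6460.3 and 7169 in the mutant pair. The groups were widely separated and the replicates of each were close. The rise in wild-type BAG was 3.35 ± 0.25 (limma adjusted p = 3.76e-05), a ratio of means of 10.2, with 2.39% of tested genes ranked above it. The Raf gene lin-45 stood at 968 and 810.2, then 2345 and 1778, then 2521 and 3063. Its rise of 1.20 ± 0.27 passed (limma adjusted p = 0.0163), with no overlap between groups. The call did not hold on leaving out wild-type BAG replicate 1, mutant replicate 1 or mutant replicate 2 (limma adjusted p = 0.109, 0.0535 and 0.0544). It was also lost in a fit without trend and in a fit to just these groups (limma adjusted p = 0.0826 and 0.0563), and it held under 12 of 17 alternatives.

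The MEK gene mek-2 had the lowest level of the 4 ERK cascade genes, also per kilobase, and stood at 118 and 128 in the non-BAG pair, 200.1 and 195 in the wild-type BAG pair and 198 and 224 in the mutant pair. The wild-type difference of 0.68 ± 0.29 did not pass (limma adjusted p = 0.157), although the groups did not overlap. Its exons overlap those of Y54E10BL.3 by 410 bases on the other strand, and that gene did not exceed 6.9. The Ras gene let-60 stood at 2322 and 1289 in the non-BAG pair, 3482 and 2982 in the wild-type BAG pair and 2673 and 2754 in the mutant pair. The non-BAG libraries were far apart for let-60, and the difference of 0.90 ± 0.31 did not pass (limma adjusted p = 0.0936). Without non-BAG replicate 1, the higher of that pair, the difference was 1.32 and passed (limma adjusted p = 0.0115).

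**Figure D2:**
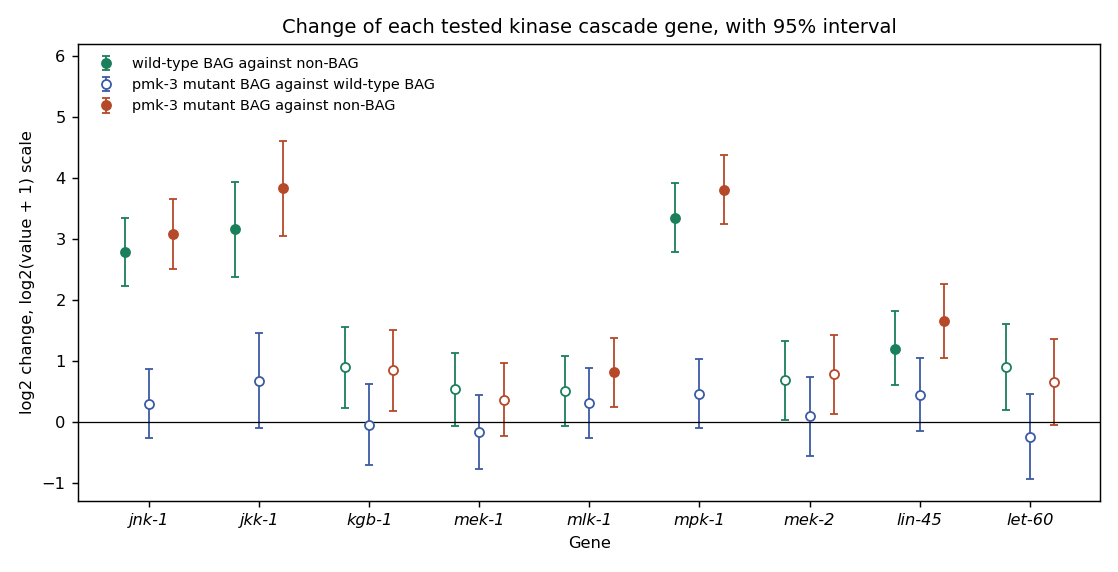
Change of each tested member (y axis, log2 difference of normalized read count plus 1) in the 3 comparisons; bars are 95% intervals and filled points passed limma's adjusted p under 0.05. Filled points over non-BAG cells are those of jnk-1, jkk-1, mpk-1 and lin-45 in both BAG groups and of mlk-1 in mutant BAG, and all 9 points of mutant against wild-type BAG are open.

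Levels of different genes were compared per length, as normalized read count per kilobase of annotated exon. In non-BAG cells the order from the highest mean was let-60 at 1303, mek-1 at 693, lin-45 at 247, mpk-1 at 244, mlk-1 at 163, kgb-1 at 142, mek-2 at 68.5, jnk-1 at 54, jkk-1 at 20.7 and kgb-2 at 8.83. Neighbours in that order overlapped between libraries for lin-45 and mpk-1 and for jkk-1 and kgb-2. In wild-type BAG neurons mpk-1 came first at 2497 ± 215 (SD, n = 2), and its libraries overlapped those of let-60 at 2334 ± 255 (SD, n = 2). There followed mek-1 at 1006, lin-45 at 573, jnk-1 at 375, kgb-1 at 266, mlk-1 at 232, jkk-1 at 189, mek-2 at 110.3 and kgb-2 at 2.07. Here kgb-1 overlapped mlk-1, and mlk-1 overlapped jkk-1. In mutant BAG neurons mpk-1 at 3438 was again first and lay above let-60 at 1959 in both libraries. After these came mek-1 at 899 and lin-45 at 775, which overlapped, then jnk-1 at 459, then jkk-1 at 289.8, mlk-1 at 286 and kgb-1 at 256, which overlapped as neighbours, then mek-2 at 118 and kgb-2 at 0.877.

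Set against 12297 tested protein-coding genes with an annotated length, 98.9% had a lower level per kilobase than mpk-1 in wild-type BAG neurons and 81.8% in non-BAG cells. For jnk-1 these shares were 86.7% and 48.7%, and for jkk-1 75.7% and 27.2%. For let-60 they were 98.8% and 97.3%, so Ras was among the more abundant transcripts in both populations. For mek-2 they were 64.6% and 54.4%.

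Ratios between members were set out per library. The ratio of mpk-1 to mek-2, per kilobase, was 3.55 and 3.58 in the non-BAG pair, 23.7 and 21.5 in the wild-type BAG pair and 29.5 and 28.9 in the mutant pair. All 4 BAG ratios lay above both non-BAG ratios. The ratio of jnk-1 to jkk-1 was 2.25 and 3.19, then 1.62 and 2.6, then 1.5 and 1.68, and its ranges in non-BAG and wild-type BAG cells overlapped. The ratio of jnk-1 to kgb-1 was 0.412 and 0.352 in the non-BAG pair, 1.25 and 1.62 in the wild-type BAG pair and 1.5 and 2.19 in the mutant pair. In non-BAG cells kgb-1 was the more abundant of these MAP kinase transcripts, and in every BAG library jnk-1 was. With 2 libraries against 2, an exact two-sided permutation test cannot go below p = 0.333, so these ratios are given without a test.

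The comparison of pmk-3 mutant with wild-type BAG neurons asks how transcripts of the other MAP kinase cascades compare when a p38 MAP kinase gene is mutated. By limma, 0 of 9 tested members passed in either direction, and 0 had an unadjusted p under 0.05, beside 2261 of all 14211 genes. The same count of 0 was given by edgeR and by DESeq2. Among all tested genes 0.837% passed by limma (119 genes), a rate at which 9 genes would rarely hold a call, while DESeq2 called 689 genes. The values were 0.29 ± 0.25 for jnk-1, 0.67 ± 0.35 for jkk-1, 0.46 ± 0.25 for mpk-1 and 0.44 ± 0.27 for lin-45 (limma adjusted p = 0.619, 0.385, 0.401 and 0.462). They were 0.30 ± 0.25 for mlk-1, 0.09 ± 0.29 for mek-2, -0.05 ± 0.30 for kgb-1, -0.17 ± 0.27 for mek-1 and -0.25 ± 0.31 for let-60 (limma adjusted p = 0.607, 0.911, 0.952, 0.809 and 0.751).

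Both mutant libraries exceeded both wild-type BAG libraries for jnk-1, jkk-1, mlk-1, mpk-1 and lin-45, and both were below for let-60. Groups that do not overlap, in either direction, were found for 50.2% of all tested genes, which is the background for these 6 of 9 members. The widest 95% interval upward was that of jkk-1, from -0.11 to 1.45, and the widest downward was that of let-60, from -0.95 to 0.46. For mpk-1 the interval ran from -0.10 to 1.02 and for jnk-1 from -0.27 to 0.86. The intervals of jkk-1, mpk-1 and lin-45 reached past 1, so a difference of 1 log2 unit lies within them. The pan-neuronal marker sums given above were also higher in both mutant libraries, and their part in these values was not tested.

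**Figure D3:**
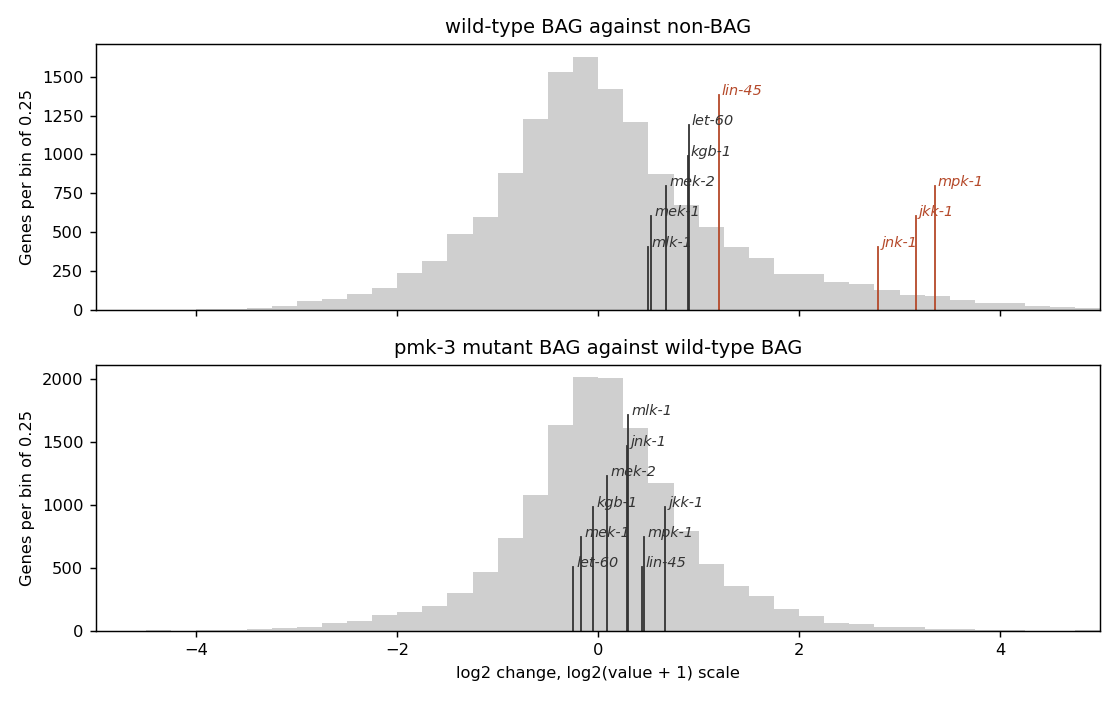
Number of tested genes per bin of 0.25 (y axis) by log2 change (x axis), for wild-type BAG against non-BAG cells above and mutant against wild-type BAG below; lines mark the 9 tested members, red where limma's adjusted p was under 0.05, at arbitrary heights, and genes beyond the axis are not drawn. In the upper panel all 9 members lie right of 0, with mpk-1 at 3.35; in the lower panel they lie between -0.25 and 0.67.

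Mutant BAG neurons were also set against non-BAG cells. This comparison shares its non-BAG libraries with the first and its mutant libraries with the second, so it is not independent of them. Here 5 of 9 tested members rose and none fell, beside 16.2% of all tested genes that were higher. All 9 were higher in both mutant libraries than in both non-BAG libraries, a pattern held by 32.1% of all tested genes. The changes were 3.81 ± 0.25 for mpk-1, 3.83 ± 0.35 for jkk-1, 3.08 ± 0.25 for jnk-1, 1.65 ± 0.27 for lin-45 and 0.81 ± 0.25 for mlk-1 (limma adjusted p = 1.01e-05, 6.40e-05, 3.66e-05, 0.00213 and 0.0441). For mlk-1 the call was lost without each of the 6 libraries in turn (limma adjusted p = 0.0508 to 0.223). For lin-45 it was lost without mutant replicate 2 (limma adjusted p = 0.0501), which left 3 calls. The values of kgb-1, mek-1, mek-2 and let-60 were 0.84 ± 0.30, 0.36 ± 0.27, 0.78 ± 0.29 and 0.65 ± 0.31 (limma adjusted p = 0.0679, 0.353, 0.0775 and 0.158). For let-60 the value without non-BAG replicate 1 was 1.07 and passed (limma adjusted p = 0.018).

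Around the members, 8 lists of pathway genes were followed, with 65 genes found in the table and 63 tested. In wild-type BAG neurons 13 rose over non-BAG cells and 7 fell, beside 10.2% higher and 4.01% lower among all tested genes. The median change of the 63 was 0.11. Leaving out any 1 of the 4 BAG libraries (replicate 1 or 2 of either genotype) gave 8 rises and 4 falls each time. Without non-BAG replicate 2 there were 10 rises and 11 falls, so falls then outnumbered rises, and without non-BAG replicate 1 there were 11 and 4. In mutant against wild-type BAG neurons 0 of 63 passed by limma and 0 by edgeR, and 4 passed by DESeq2. By limma 9 of them had an unadjusted p under 0.05, beside 2261 of all 14211 tested genes. The most abundant gene of each list is given for this comparison. The values were -0.11 ± 0.32 for clr-1, 0.38 ± 0.32 for sur-6, 0.15 ± 0.39 for lin-15B, 0.24 ± 0.42 for the MAP kinase interacting kinase gene mnk-1 and -0.62 ± 0.27 for the p21-activated kinase gene max-2. They were 0.27 ± 0.28 for vhp-1, -0.32 ± 0.27 for unc-116 and 0.19 ± 0.33 for lit-1. Exons of mnk-1 overlap those of R166.6 by 1791 bases on the same strand, so its level is uncertain.

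The 7 tested genes for EGF and FGF ligands, receptors and their partners act upstream of the ERK cascade. Of these, 0 rose and 3 fell in wild-type BAG neurons. Their median was -0.72, and 10.2% of all tested genes were higher and 4.01% lower. The 3 were egl-15, let-756 and let-23, and in mutant BAG neurons let-23 did not pass (-1.01 ± 0.36, limma adjusted p = 0.0684). The FGF receptor gene egl-15 stood at 634 and 262 in the non-BAG pair, 77.7 and 43.1 in the wild-type BAG pair and 137 and 81.6 in the mutant pair. All 4 BAG libraries were under both non-BAG libraries, and the wild-type change was -2.79 ± 0.49 (limma adjusted p = 0.00467). The FGF gene let-756 stood at 657 and 443, then 134 and 101, then 188 and 79.3, a change of -2.20 ± 0.43 (limma adjusted p = 0.00802). The EGF receptor gene let-23 stood at 420.2 and 244, then 147 and 103, then 176 and 144, a change of -1.37 ± 0.36 (limma adjusted p = 0.032). The most abundant gene of the list, the receptor phosphatase gene clr-1, had -0.32 ± 0.32 with overlapping groups, and lin-3, egl-17 and sem-5 did not pass either.

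Genes listed as activators, scaffolds or inhibitors of Ras and ERK signalling, not all of which act between Ras and ERK, went both ways. Among activators and scaffolds, with a median of 0.37, 3 of 12 tested genes rose and 0 fell, beside 10.2% and 4.01% of all tested genes. The exchange factor gene rgef-1, which is also on the pan-neuronal marker list, stood at 98.5 and 56.4 in the non-BAG pair, 639 and 575 in the wild-type BAG pair and 1103 and 1368 in the mutant pair, a rise of 3.00 ± 0.32 in wild-type BAG. The scaffold gene soc-2, whose product promotes Raf activation, rose by 2.61 ± 0.25, and sur-6, encoding a regulatory subunit of protein phosphatase 2A, by 1.17 ± 0.32. Of 9 tested inhibitors 4 rose and 3 fell, beside the same shares of all tested genes. The Ras GTPase activating protein gene gap-1 stood at 70.4 and 51.5, then 711 and 433, then 624 and 811, a rise of 3.18 ± 0.34. Its relative gap-3 fell by 1.26 on the log2 scale, as did the receptor phosphatase gene dep-1 and the kinase gene ark-1, each by 1.21. The dual specificity phosphatase gene lip-1 rose by 0.87 ± 0.25 (limma adjusted p = 0.0489). That call and the call of sur-6 (limma adjusted p = 0.0384) lie close to the threshold. In a fit without trend the rises over all 8 lists went from 13 to 8, and which genes were lost is not given here. The synthetic multivulva genes lin-15A and lin-15B rose by 6.51 ± 0.31 and 5.43 ± 0.39, from means of 605 and 2014 to means of 55530.0 and 88654. Their exons overlap by 5 bases on the same strand. All 3 groups carry the reporter wzIs113, and whether any reads of lin-15A and lin-15B arise from it was not tested.

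Among 9 tested targets and effectors of ERK, with a median of -0.53, 1 rose and 1 fell. Over all tested genes 10.2% were higher and 4.01% lower, so the share of rises was near that background. The ribosomal S6 kinase gene rskn-1, encoding a kinase of the RSK family, stood at 254 and 265 in the non-BAG pair, 2830 and 1881 in the wild-type BAG pair and 4598 and 4373 in the mutant pair. Its rise in wild-type BAG was 3.15 ± 0.28 (limma adjusted p = 9.03e-05). The Hox gene lin-39, known from vulval precursor cells, fell by 1.97 on the log2 scale (limma adjusted p = 0.00526). In the list of other MAP kinases 1 of 5 tested genes rose, beside 10.2% of all tested genes. It was C05D10.2, now named mapk-15, an atypical MAP kinase, at 188 and 127, then 1942 and 883, then 1571 and 1483. Its rise was 3.07 ± 0.38 (limma adjusted p = 0.000654). The p38 genes pmk-1, pmk-2 and pmk-3 and the Nemo-like kinase gene lit-1 did not pass. In that list mpk-2 did not exceed 8.66 and was not tested.

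The counts that follow stand beside 10.2% of all tested genes higher and 4.01% lower in wild-type BAG neurons. Around the JNK and KGB-1 cascades, 1 of 11 tested upstream regulators and scaffolds rose and 0 fell, near that background. This was jip-1, encoding a JNK-interacting scaffold protein, at 313 and 294 in the non-BAG pair, 1370.4 and 1294 in the wild-type BAG pair and 1290.3 and 1658 in the mutant pair. Its rise was 2.13 ± 0.26 (limma adjusted p = 0.000557), and the groups did not overlap. Another scaffold gene, unc-16, had 0.62 ± 0.26 (limma adjusted p = 0.151). Of 6 tested genes for the phosphatase and targets 3 rose and 0 fell, with a median of 0.92. They were the transcription factor genes atf-7 (1.12 ± 0.27), jun-1 (0.94 ± 0.27) and fos-1 (0.90 ± 0.25), with limma adjusted p of 0.0209, 0.0474 and 0.0445. The calls of jun-1 and fos-1 lie close to the threshold. Over all 8 lists the 13 rises became 8 in a fit without trend and 8 in a fit to just the groups compared. Which genes were lost is not given here. Exons of jun-1 overlap those of C16D2.1 by 501 bases on the same strand, and those of atf-7 overlap C07G2.5 by 72. Those of fos-1 overlap F29G9.19 by 256 bases on the same strand, and rpt-2, anr-32 and F29G9.14 on the other strand. Part of the count of each of these transcription factor genes is therefore uncertain. The phosphatase gene vhp-1, whose product inactivates KGB-1, was abundant in every library, from 7095 to 11689, at 0.37 ± 0.28 in wild-type BAG. The kinesin-1 genes that partner JNK scaffolds had 0 of 4 past the threshold, with unc-116 at 0.11 ± 0.27.

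In mutant BAG over non-BAG cells 17 of the 63 rose and 6 fell, beside 16.2% higher and 9.34% lower among all tested genes, and their median was -0.03. Besides genes already named, shc-1, an adaptor gene of the KGB-1 cascade, rose by 1.63 ± 0.37 (limma adjusted p = 0.0112). The protein kinase C gene tpa-1 rose by 1.54 ± 0.31 and the kinesin-1 partner gene unc-14 by 0.90 ± 0.29 (limma adjusted p = 0.00657 and 0.0473). Another rise was that of the forkhead gene daf-16, at 1.29 ± 0.35 (limma adjusted p = 0.0234). The Mediator subunit gene sur-2 fell by 0.98 on the log2 scale (limma adjusted p = 0.0247). Without mutant replicate 1 and mutant replicate 2 the counts were 11 rises with 2 falls and 10 rises with 0 falls. Exons of shc-1 overlap those of cutl-20 by 221 bases on the same strand, so its level is uncertain.

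**Figure D4:**
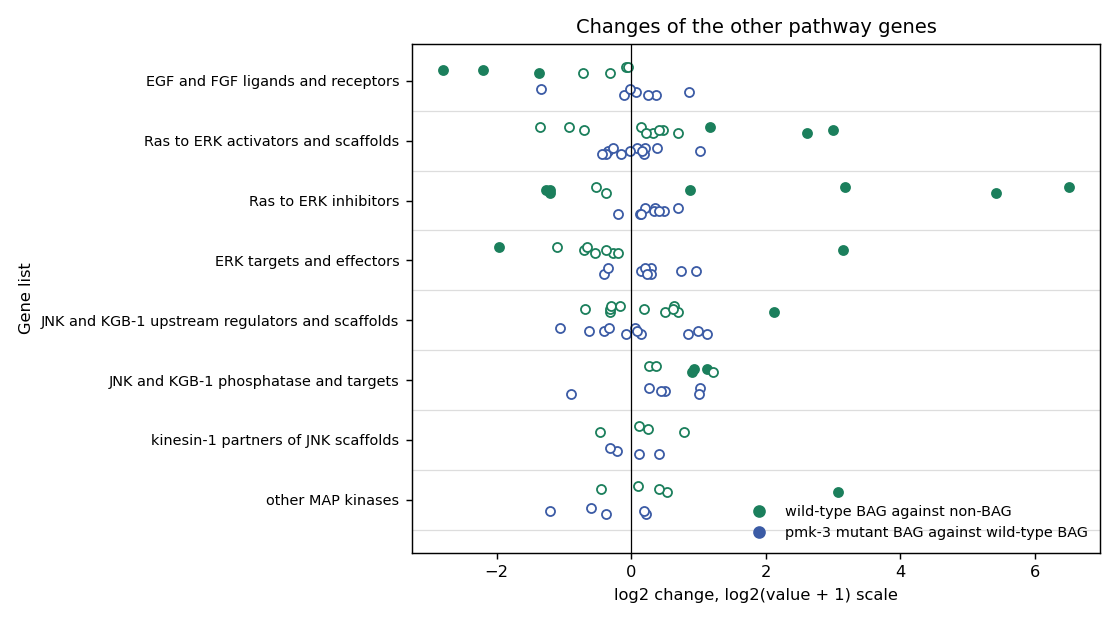
Change of each tested gene of the 8 pathway lists (x axis, log2 difference of normalized read count plus 1), for wild-type BAG against non-BAG in green and mutant over wild-type BAG in blue; filled points passed limma's adjusted p under 0.05. The green filled points are 13 right of 0 and 7 left of it, and no blue point is filled.

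The genes most like jnk-1, kgb-1 and mpk-1 across the 6 libraries were sought among 5927 other genes with a mean of at least 100, by the distance between centred log2 values. Nearest to jnk-1 were unc-43 (distance 0.14), encoding a calcium/calmodulin-dependent kinase, unc-10 (0.21), encoding an active zone protein, and the developmental timing gene lin-14 (0.22). Of these, unc-10 is also on the pan-neuronal marker list. From jnk-1, its own kinase gene jkk-1 lay at 0.97, with 189 genes closer, and mpk-1 at 0.79, with 113 closer. Nearest to mpk-1 were the carbonic anhydrase gene cah-2 (0.26), the G protein-coupled receptor kinase gene grk-2 (0.27) and the G protein regulator gene rgs-6 (0.28). From mpk-1, mek-2 lay at 3.31. Nearest to kgb-1 were ZC455.1 (0.08), T09B4.9 (0.24) and R13H4.5 (0.29), and mlk-1 lay at 0.53 with 50 genes closer. The points are 6 libraries in 3 groups, and all genes share those libraries and their depths.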

How the data were processed

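The authors deposited 1 table of normalized counts per gene, treated as a signal, with 1 column per library. Per the submitters' processing notes the tools were STAR, HTSeq and DESeq2, with no versions or roles given. Neither the genome build nor the annotation release or strand setting is stated, and coordinates are left out. All values of each library (100.0%) were whole multiples of the value of 1 read within 0.01 of a read, which gave the recovered reads.

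The 14211 genes that reached 10 in 2 or more libraries were fitted with limma 3.58.1 in R 4.3.3 on log2(value + 1). The fit used a mean-variance trend, all 3 groups together, 3 residual degrees of freedom, no replicate block and two-sided tests. This scale understates changes of low genes. Chi-square tests of the recovered reads gave 47.6 per degree of freedom between the non-BAG replicates, 32.4 for wild-type BAG and 10.9 for mutant BAG, above the 1 of sampling noise. Alternatives were pseudocounts of 0.5 and 8, other filters and scalings, a replicate block, a fit without trend, a fit to just the groups compared, edgeR 4.0.16 and DESeq2 1.42.0 on recovered reads, and each library left out. On recovered reads edgeR called 1953, 160 and 3474 genes in the 3 comparisons in the order of the report and DESeq2 2306, 689 and 3836, and limma on the deposited values called 2014, 119 and 3628. The limma and edgeR scripts were tested on simulated data.

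Exon lengths, overlaps and current names came from an Ensembl annotation, which may differ from the authors' annotation and which held 46407 of the 47063 rows. The members and lists were chosen with earlier results of these data known. Named genes are the members and, for each list and comparison, up to 3 called genes with the largest changes or otherwise the most abundant gene. To these were added the 3 genes nearest to each of jnk-1, kgb-1 and mpk-1, and pmk-3. The genes gap-3, ark-1, dep-1, lip-1, unc-16, vhp-1, lin-3, egl-17, sem-5, daf-16 and the p38 genes were named in addition, after their values were seen. Also named in this way are the unadjusted differences in the closing section. Sequences were not used here.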

Additional observations from a re-analysis of the deposited data

How the results depend on the processing

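The calls of jnk-1, jkk-1 and mpk-1 over non-BAG cells held in both BAG groups under all 17 alternatives. Between wild-type BAG and non-BAG cells 4 members were called, and 3 to 6 over the alternatives. In mutant over non-BAG cells 5 members were called, and 3 to 5 with a library left out. For mutant against wild-type BAG, 0 members were called under every alternative. Directions reversed only among uncalled values of that comparison: kgb-1 was at 0.06 under TMM scaling, 0.05 by edgeR and from -0.29 to 0.18 with a library left out (0.18 without wild-type BAG replicate 1 and without mutant replicate 2), and mek-1 ran from -0.38 to 0.04 (0.04 without mutant replicate 1); the cause was not tested. Of the pathway genes, 20 were called between wild-type BAG and non-BAG cells, 11 with no trend, 12 with only the groups compared and 12 to 21 with a library left out. Mutant over non-BAG cells gave 23, and 10 to 24 with a library left out. Mutant against wild-type BAG gave 0, 5 with only the groups compared, 4 by DESeq2 and 0 to 3 with a library left out. Quantile scaling moved the split of called pathway genes in mutant over non-BAG cells from 17 higher and 6 lower to 17 and 13. Over all genes, mutant against wild-type BAG gave 119 calls (69 higher, 50 lower), 137 under TMM scaling (94 higher, 43 lower), 160 by edgeR (118 higher, 42 lower), 689 by DESeq2, 685 with the replicate block, 656 with only the groups compared, 221 with a pseudocount of 8, 1 with no trend and 0 to 520 with a library left out. TMM scaling moved the median of all genes in that comparison from 0.02 to 0.13, and quantile scaling moved that of mutant over non-BAG cells from -0.09 to -0.23.

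The labels do not say that a replicate number marks a shared culture or day, and 2 numbers a comparison are too few to settle it: same-numbered deviations correlated at 0.46 between non-BAG and wild-type BAG, 0 between non-BAG and mutant BAG and 0.05 between the BAG groups. With the replicate block 6, 0 and 6 members and 21, 3 and 28 pathway genes were called in the 3 comparisons in the order of the report, against 4, 0 and 5 and 20, 0 and 23 without it. The block added kgb-1 and let-60 in wild-type BAG over non-BAG (limma adjusted p = 0.0406 and 0.0408) and kgb-1 in mutant BAG over non-BAG (0.0357).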

Other observations

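In mutant against wild-type BAG neurons, 2261 of all 14211 tested genes had an unadjusted p under 0.05 by limma. Of the 63 tested pathway genes 9 did, a share no larger than that, and none passed the adjusted threshold. They are named here after their values were seen, and pmk-3 itself is one of them. The AP-1 gene fos-1 stood at 1199 and 934 in wild-type BAG and 2060.0 and 2202 in mutant BAG (1.01 ± 0.25, limma adjusted p = 0.0998). Exons of fos-1 overlap those of F29G9.19 by 256 bases on the same strand, so its level is uncertain. The receptor tyrosine kinase gene svh-2, which acts upstream of the KGB-1 cascade in axon regeneration, stood at 543 and 586 against 326 and 227 (-1.05 ± 0.29, limma adjusted p = 0.118). Exons of svh-2 overlap those of T14E8.4 and dop-3 on the opposite strand, and part of its count may be theirs.

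The other 6 had limma adjusted p from 0.136 to 0.31. The RSK gene rskn-1 had 0.96 ± 0.28, and the exchange factor gene rgef-1, also a pan-neuronal marker, had 1.02 ± 0.32. The adaptor gene shc-1 had 1.13 ± 0.37, and the forkhead gene daf-16, whose product is a known substrate of JNK-1, had 1.02 ± 0.35. The protein kinase C gene tpa-1 had 0.84 ± 0.31 and the p21-activated kinase gene max-2 had -0.62 ± 0.27. The pan-neuronal marker sums were also higher in both mutant libraries, and their part in these values was not tested.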
